A study of Mus musculus with 9 samples.

Results

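The genes of the IL-12, IL-27, and IFN-γ axis were described in the livers of 9 wild-type C57BL/6 mice, 48 hours after treatment. The 10 genes were chosen by name as the ligands, receptor chains, and lineage transcription factor of this axis, and all 10 had a row among the 24341 genes of the table. They are the cytokine subunits Il12a, Il12b, Il27, and Ebi3 with the ligand Ifng, the receptor chains Il12rb1, Il12rb2, Ifngr1, and Ifngr2, and the transcription factor Tbx21. There were 3 mice given FGK45, an agonist antibody that activates CD40 (the anti-CD40 or treated group, mice 2, 5, and 9). The 6 control mice (mice 3, 4, 7, 8, 11, and 12) had received PBS according to the sample records. By the study's general methods the mice were sex matched and between 8 and 12 weeks old, some experiments used mice of a Pdx-Cre breeding colony, and anti-CD40 mice without the usual fall in blood B cells were left out. The records do not say which of these statements applied to these 9 mice, and they name no batch.

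IL-12 is a heterodimer of p35 (Il12a) and p40 (Il12b), made mainly by activated dendritic cells, monocytes, and macrophages. It binds a receptor with a pair of chains, Il12rb1 and Il12rb2, on NK cells and T cells, and signals through JAK2, TYK2, and STAT4. T-bet (Tbx21) then helps these cells to make IFN-γ, which acts through Ifngr1 and Ifngr2, JAK1, and JAK2 on nearly every cell of the liver. IL-27 is made of p28 (Il27) and Ebi3. CD40 engagement on antigen-presenting cells is a classical trigger of IL-12 production.

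RNA was read from the 3′ end of transcripts, and the deposited values are FPKM, reads scaled by transcript length and by the mapped reads of the library, with a floor of 0.01. FPKM divides by a transcript length that does not set the number of reads in 3′ data. Levels of different genes are therefore not read as relative amounts of RNA. A ratio of 2 genes is read only by its change between mice. The sum of a marker list, and the part of a gene in it, hold for FPKM only. The length cancels in the ratio of FPKM of a single gene between mice. The test across genes was limma on log2(FPKM + 0.1) in the 13807 genes whose mean FPKM reached 0.1, with Benjamini-Hochberg adjustment. This scale understates the change of low genes. Single genes were tested by exact permutation (2-sided, 84 ways to split the mice), where p cannot go below 0.0238. Read totals are not given by the table, so depth is known only as the number of reads that low FPKM values stand for. Each mouse had 14684 to 15545 genes above the floor. Anti-CD40 mouse 5 stood apart by pancreatic enzyme transcripts, with a summed FPKM of 873 for 8 acinar markers against 27.5 to 190 in the other 8 mice.

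Promoter sequence is shown for the members in which a searched motif was found beside a clear change, and for Ifng, the ligand, whose reads stayed few. The sequences are the 250 bases before the RefSeq transcription start on GRCm38.p6, the patch release of the mm10 assembly, written 5′ to 3′ on the strand of the gene. Of the 10 members, 8 had an entry. Capitals mark every match to 5 searched motifs on either strand: the IFN-γ activated site (GAS) TTCNNNGAA, the interferon-stimulated response element core GAAANNGAA, the 9-letter κB motif GGGNNTTCC, the 10-letter κB consensus, and the PU.1 core GAGGAA. The windows are chr11:44399813-44400062 on the plus strand for Il12b, chr17:55952373-55952622 on the plus strand for Ebi3, chr16:91546809-91547058 on the plus strand for Ifngr2, and chr10:118440796-118441045 on the plus strand for Ifng.
Il12b: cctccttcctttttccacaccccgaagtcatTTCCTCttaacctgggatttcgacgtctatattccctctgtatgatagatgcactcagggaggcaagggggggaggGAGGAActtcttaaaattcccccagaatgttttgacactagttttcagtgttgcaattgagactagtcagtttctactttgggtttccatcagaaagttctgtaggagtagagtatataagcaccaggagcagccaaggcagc
Ebi3: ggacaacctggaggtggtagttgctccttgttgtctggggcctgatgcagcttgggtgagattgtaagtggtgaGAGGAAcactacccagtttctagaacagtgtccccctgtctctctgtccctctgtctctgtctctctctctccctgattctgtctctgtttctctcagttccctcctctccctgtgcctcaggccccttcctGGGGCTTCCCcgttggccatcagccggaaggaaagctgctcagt
Ifngr2: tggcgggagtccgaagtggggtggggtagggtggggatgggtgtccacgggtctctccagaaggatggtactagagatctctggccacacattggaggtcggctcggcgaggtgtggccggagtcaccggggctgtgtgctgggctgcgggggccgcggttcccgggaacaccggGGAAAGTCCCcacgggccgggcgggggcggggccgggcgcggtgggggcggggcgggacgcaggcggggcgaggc
Ifng: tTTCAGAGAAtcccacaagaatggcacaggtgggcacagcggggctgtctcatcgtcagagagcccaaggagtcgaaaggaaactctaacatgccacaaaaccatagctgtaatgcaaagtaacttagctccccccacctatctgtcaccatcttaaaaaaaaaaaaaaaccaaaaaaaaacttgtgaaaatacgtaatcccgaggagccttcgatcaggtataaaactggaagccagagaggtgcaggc
Il12b held a PU.1 core from -143 to -138 relative to the start and another, on the opposite strand, from -219 to -214. Ebi3 held a κB match from -44 to -35, in which the 9-letter and the 10-letter motif overlap, and a PU.1 core from -176 to -171. Ifngr2 held the 10-letter κB consensus from -75 to -66 on the opposite strand. GAS was found in Ifng from -249 to -241 and in Il12rb2 from -123 to -115, and in no other member window. No searched motif was found in the windows of Ifngr1, Tbx21, or Il12a, which has 2 starts in the table. Among 32851 promoters of the same length, 7.02% held GAS, 7.13% the response element core, 4.98% the 9-letter and 7.25% the 10-letter κB motif, and 23.3% the PU.1 core. A match describes these letters only and does not show binding.

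After anti-CD40, the p40 gene Il12b, Ebi3, Il12rb1, Tbx21, Ifngr1, and Ifngr2 rose in the liver, whereas Ifng and Il12rb2 stayed at a few reads and Il27 stayed at the floor. Of the 10 members, 6 passed the filter on low values and were tested across genes. All 6 were higher at an adjusted p under 0.05 from limma, and none was lower. The background was high, since 45.1% of all genes tested were called, 23.5% higher and 21.7% lower. The median log2 fold change was 1.77 over the 6 members tested and 0.0056 over all genes tested. In 7 members, the 6 tested and Il12a, every anti-CD40 mouse was above every control mouse, which held in 22.7% of all genes tested. None of the 6 passed the filter through the anti-CD40 mice alone, as each had a control mean of at least 0.1. For Il12b this was borderline. Its control mean was 0.110 and its control median 0.0838, with 0.274 in control mouse 4. Without the mouse that held pancreatic transcripts, all 6 were still called higher.

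**Figure D1:**
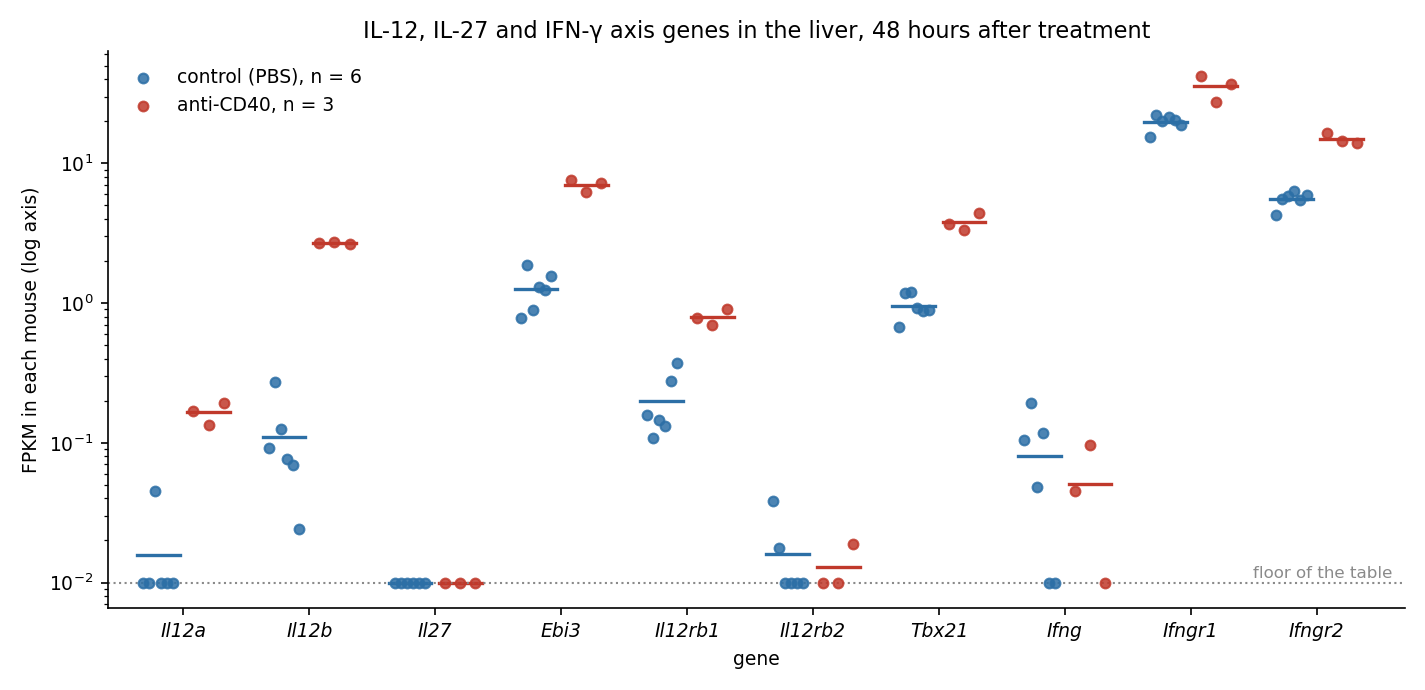
FPKM of the 10 members in each of the 9 mice on a log axis, control mice in blue (n = 6) and anti-CD40 mice in red (n = 3), with a bar at each group's mean and a dotted line at the floor of 0.01. The groups are apart in Il12a, Il12b, Ebi3, Il12rb1, Tbx21, Ifngr1, and Ifngr2, overlap in Il12rb2 and Ifng, and are at the floor in Il27.

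Il12b, which encodes the p40 subunit of IL-12 and IL-23, lies on chr11:44400063-44414677 of mm10. Its FPKM was 2.69, 2.75, and 2.66 in treated mice 2, 5, and 9. In the control mice the lowest value was 0.0241, the median 0.0838, and the highest 0.274. The anti-CD40 mice were nearly equal and far above every control mouse, and the control mice themselves spread widely. The group means were 2.70 ± 0.0458 (SD, n = 3) and 0.110 ± 0.0867 (SD, n = 6), a ratio of 24.5. The log2 fold change was 3.82 (SE 0.30, limma adjusted p = 5.82e-06). It depends on the pseudocount, with 1.74 at a pseudocount of 1 and 4.78 at 0.01. These values stand for 137, 132, and 119 reads in the anti-CD40 mice and 1 to 13 reads per control mouse. Per unit of relative depth the pooled reads gave a ratio of 23.7 (95% exact interval 16.3 to 35.6), which covers counting error only.

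Il12a, which encodes the p35 subunit of IL-12 and IL-35, lies on chr3:68690644-68698550. It was low in all mice, with an FPKM of 0.169, 0.135, and 0.193 in treated mice 2, 5, and 9. Of the control mice, 5 were at the floor and mouse 7 had 0.0451. The groups did not overlap, but the values stand for only 4, 3, and 4 reads after anti-CD40 and 1 read in all 6 control mice together. The log2 difference was 1.20 (exact permutation p = 0.0238, the smallest possible). The ratio of the reads per unit of depth was 20.2, with a 95% exact interval of 2.93 to 868 for counting error.

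Il23a encodes p19, which pairs with p40 to form IL-23. It is a partner gene rather than a member. Its values stood for 24, 10, and 6 reads in treated mice 2, 5, and 9 and for 2 reads in all control mice together. The mean FPKM was 0.541 ± 0.353 (SD, n = 3) and 0.0213 ± 0.0175 (SD, n = 6), with groups apart and the anti-CD40 mice unequal. It passed the filter only through the anti-CD40 mice, so its limma call is not used as support here. Il23r, the receptor chain particular to IL-23, was at the floor in all 9 mice.

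Ebi3, the β subunit of IL-27 and IL-35, had an FPKM of 7.60, 6.21, and 7.19 in treated mice 2, 5, and 9. The control mice had 0.776 at the lowest, a median of 1.27, and 1.87 at the highest. Every anti-CD40 mouse was thus above 3 times the highest control. The means were 7.00 ± 0.711 (SD, n = 3) and 1.27 ± 0.408 (SD, n = 6), a ratio of 5.52, and the log2 fold change was 2.42 (SE 0.25, limma adjusted p = 2.79e-05). The table gives Ebi3 a position, chr17:55952623-55967951, that it shares with Ccdc94 and with Gm16712, an antisense gene that overlaps Ebi3. Neither of these was apart between the groups. Ccdc94 had means of 0.242 and 0.279 (limma adjusted p = 0.971), and Gm16712 lay between 0.0390 and 0.151 after anti-CD40 and between 0.01 and 0.117 in control mice. Whether the authors' counting used strand is not given in the sources used here, so reads of Ebi3 and its antisense gene cannot be told apart.

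Il27, which encodes p28, the other subunit of IL-27, was at the floor of 0.01 in all 9 mice (chr7:126589295-126594910). It overlaps Apobr on the opposite strand. A floor value in every mouse does not show whether the transcript was too rare to be read or was not counted. No level or limit is therefore given for p28.

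Of the IL-12 receptor chains, Il12rb1 rose and Il12rb2 was barely detected. Il12rb1, the chain shared with the IL-23 receptor, lies on chr8:70808449-70821423. Its FPKM was 0.778, 0.701, and 0.907 in treated mice 2, 5, and 9, against 0.109 at the lowest, 0.151 at the median, and 0.374 at the highest in control mice. The groups did not overlap. The means were 0.795 ± 0.104 (SD, n = 3) and 0.199 ± 0.104 (SD, n = 6), a ratio of 4.00. The log2 fold change was 1.64 (SE 0.28, limma adjusted p = 8.04e-04), and it was 0.59 with a pseudocount of 1 and 2.07 with 0.01. The reads were 46, 39, and 47 after anti-CD40 and 6 to 18 per control mouse.

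Il12rb2, the chain that binds STAT4 and marks type 1 cells, was at the edge of detection. It had 1 read in the 3 anti-CD40 mice together and 3 reads in the 6 control mice (chr6:67292018-67376137, minus strand, a region that overlaps Serbp1). The groups overlapped. The ratio of reads per unit of depth was 0.611, with a 95% exact interval of 0.0116 to 7.61 for counting error, so neither a several-fold rise nor a fall could be seen at this depth. The log2 difference was -0.034 (exact permutation p = 1).

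Tbx21 encodes T-bet, the transcription factor of type 1 lymphocytes and NK cells (chr11:97098007-97115331, minus strand). Its FPKM was 3.69, 3.35, and 4.39 in treated mice 2, 5, and 9, and the control mice ran from 0.669 over a median of 0.911 to 1.19. The groups were well apart. With means of 3.81 ± 0.528 (SD, n = 3) and 0.956 ± 0.198 (SD, n = 6), the ratio was 3.98 and the log2 fold change 1.90 (SE 0.19, limma adjusted p = 2.26e-05). These values stood for 164 to 200 reads per anti-CD40 mouse and 30 to 58 per control mouse, which makes Tbx21 the best counted of the low members. The related factor Eomes, a partner gene, was read 27, 30, and 27 times after anti-CD40 and 0 to 3 times per control mouse. It passed the filter only through the anti-CD40 mice, so its limma call is not used as support.

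Ifng, the ligand, had few reads in either group, with 1, 2, and 0 in treated mice 2, 5, and 9 and 0 to 4 in the control mice. The highest value belonged to a control mouse. The pooled reads gave a ratio of 0.611 per unit of depth, with a 95% exact interval of 0.106 to 2.45 for counting error. The log2 difference was -0.21 (exact permutation p = 0.524). In the annotation, Ifng overlaps Gm49751, an unconfirmed transcript on the same strand.

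The receptor of IFN-γ was measured far above the floor. Ifngr1, the ligand-binding chain (chr10:19591958-19610225), had an FPKM of 42.0, 27.5, and 37.2 in treated mice 2, 5, and 9, and control mice had 15.3 at the lowest, 20.3 at the median, and 22.2 at the highest. The groups did not overlap, although mouse 5 was close to the controls. The means were 35.6 ± 7.37 (SD, n = 3) and 19.7 ± 2.42 (SD, n = 6), a ratio of 1.81, with a log2 fold change of 0.84 (SE 0.16, limma adjusted p = 0.00156). Ifngr2, the signaling chain (chr16:91547094-91564007), had 16.4, 14.5, and 14.1 after anti-CD40 and 4.30, 5.69, and 6.29 as the lowest, median, and highest control value. The anti-CD40 mice were all more than 2 times the highest control mouse. The means were 15.0 ± 1.27 (SD, n = 3) and 5.55 ± 0.684 (SD, n = 6), a ratio of 2.70, with a log2 fold change of 1.43 (SE 0.13, limma adjusted p = 1.66e-05).

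The balance of partner genes within a mouse was compared in 4 pairs, as the log2 ratio of (FPKM + 0.1). Only the chains of the IFN-γ receptor were both far enough above the added 0.1 for this ratio to be read. Ifngr2 over Ifngr1 was -1.35, -0.92, and -1.40 in treated mice 2, 5, and 9, and between -1.99 and -1.66 in control mice. The groups did not overlap, and mouse 5 was highest. The mean ratio rose by 0.59, from -1.81 ± 0.118 (SD, n = 6) to -1.22 ± 0.262 (SD, n = 3), with an exact permutation p of 0.0238, the smallest possible. All 4 pairs had this p, so adjustment over them left it unchanged. The adjustment gives no added assurance, because the other pairs cannot be read as a balance. The ratio of Il12b over Il12a had a difference of 2.63 between the groups, but Il12a was at the floor in 5 mice, and the difference was 1.54 with a pseudocount of 1 and 1.91 with 0.01. By reads per unit of depth, Il12b and Il12a had ratios of 23.7 and 20.2 between the groups, with the wide interval given above for Il12a, so no shift in their balance was shown. In Il12rb2 over Il12rb1 and Il27 over Ebi3 the first gene was at the floor in 6 and in 9 mice. Their differences, -1.67 and -2.42, therefore follow from Il12rb1 and Ebi3 and show nothing of a balance.

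**Figure D2:**
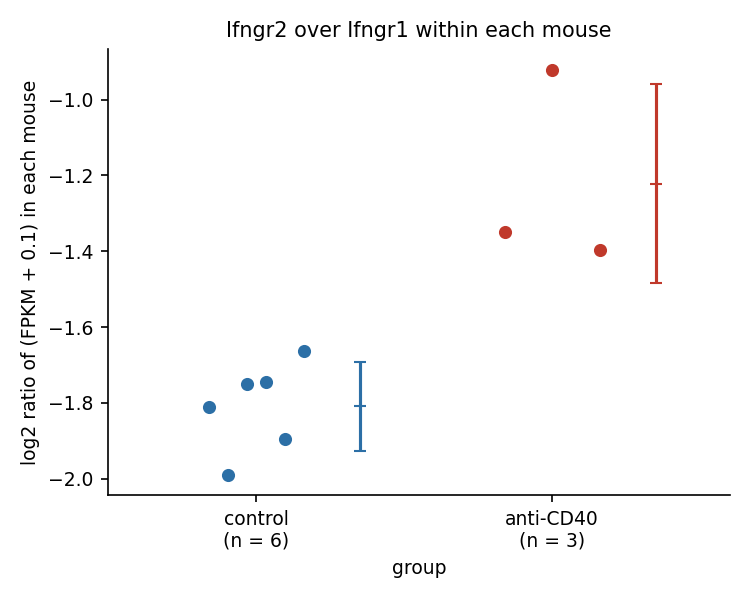
Within-mouse log2 ratio of (FPKM + 0.1) for Ifngr2 over Ifngr1, each point 1 mouse, with the mean ± SD beside the points. All 3 anti-CD40 mice (red, -1.40 to -0.92) are above all 6 control mice (blue, -1.99 to -1.66).

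The other genes of the pathway were described with a list of 26 partner genes, of which 24 were tested. In these, 17 were higher and 1 was lower, against 23.5% and 21.7% over all genes tested, and 6 were not called. The median log2 fold change of the list was 1.41. Of the genes tested, 3 (Il23a, Il18rap, and Eomes) had a control mean under 0.1 and so passed the filter only through the anti-CD40 mice. Stat4, which relays IL-12, had a mean FPKM of 0.578 ± 0.122 (SD, n = 3) against 0.161 ± 0.0793 (SD, n = 6) (log2 fold change 1.41, limma adjusted p = 0.00172). The kinases Jak2 (0.85) and Jak1 (0.45) rose less on the log2 scale, and Tyk2 had a log2 fold change of 0.27 (95% interval -0.17 to 0.71, limma adjusted p = 0.300), although it was called higher after leaving out the abundant acute phase genes Saa1, Saa2, and Saa3 and rescaling each mouse to the same total (0.63, adjusted p = 0.0136).

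Inhibitors of these cytokines were also higher. Socs1, a feedback inhibitor of JAK kinases, had a mean FPKM of 11.2 ± 3.13 (SD, n = 3) against 1.77 ± 0.936 (SD, n = 6), which is 2.69 as a log2 fold change (limma adjusted p = 1.69e-04). Il18bp, the soluble decoy that binds IL-18, had 35.6 ± 2.11 (SD, n = 3) against 7.98 ± 2.13 (SD, n = 6), which is 2.18 as a log2 fold change. Il18 itself, a cytokine that acts with IL-12 to induce IFN-γ, was the only partner called lower. Its FPKM lay between 49.3 and 73.3 after anti-CD40 and 74.7 and 180 without it, with a log2 fold change of -1.0 (limma adjusted p = 0.0109). The call on Il18 was lost with quantile normalization (-0.67, adjusted p = 0.0804), after the rescaling without the Saa genes (-0.64, adjusted p = 0.0772), and without mouse 5 (-0.88, adjusted p = 0.0532). Of the chains of its receptor, Il18r1 rose by a log2 fold change of 1.87, a call that was lost with no filter on low values (adjusted p = 0.0590). Il18rap stood for 47 to 54 reads per anti-CD40 mouse and 3 to 13 per control mouse.

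Other receptor chains differed in size of change. Il2rg, the common γ chain of the IL-2 family, had the largest change of the list (log2 fold change 3.07, limma adjusted p = 6.26e-06). Il6st, the gp130 chain with which IL-27 signals, rose by 0.73 on the log2 scale, from 5.55 ± 0.774 (SD, n = 6) to 9.18 ± 0.298 (SD, n = 3). Il27ra, the chain particular to IL-27, had a log2 fold change of 0.41 (95% interval -0.44 to 1.27, limma adjusted p = 0.411). Il15, which sustains NK cells, had a log2 fold change of 0.24 and Il15ra -0.22, neither called (limma adjusted p = 0.561 and 0.444). Il15ra turned to 0.15 after the rescaling without the Saa genes.

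Of the interferon regulatory factors, Irf8, needed for IL-12 production in dendritic cells, had a mean FPKM of 24.0 ± 0.713 (SD, n = 3) against 5.12 ± 1.03 (SD, n = 6), which is 2.23 as a log2 fold change (limma adjusted p = 5.45e-06). Irf1, an early target of IFN-γ, had 48.6 ± 5.87 (SD, n = 3) against 39.4 ± 9.04 (SD, n = 6) with overlapping groups and a log2 fold change of 0.33 (limma adjusted p = 0.179). Irf1 was called higher with quantile normalization (0.59, adjusted p = 0.0318) and after the rescaling without the Saa genes (0.69, adjusted p = 0.0107).

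**Figure D3:**
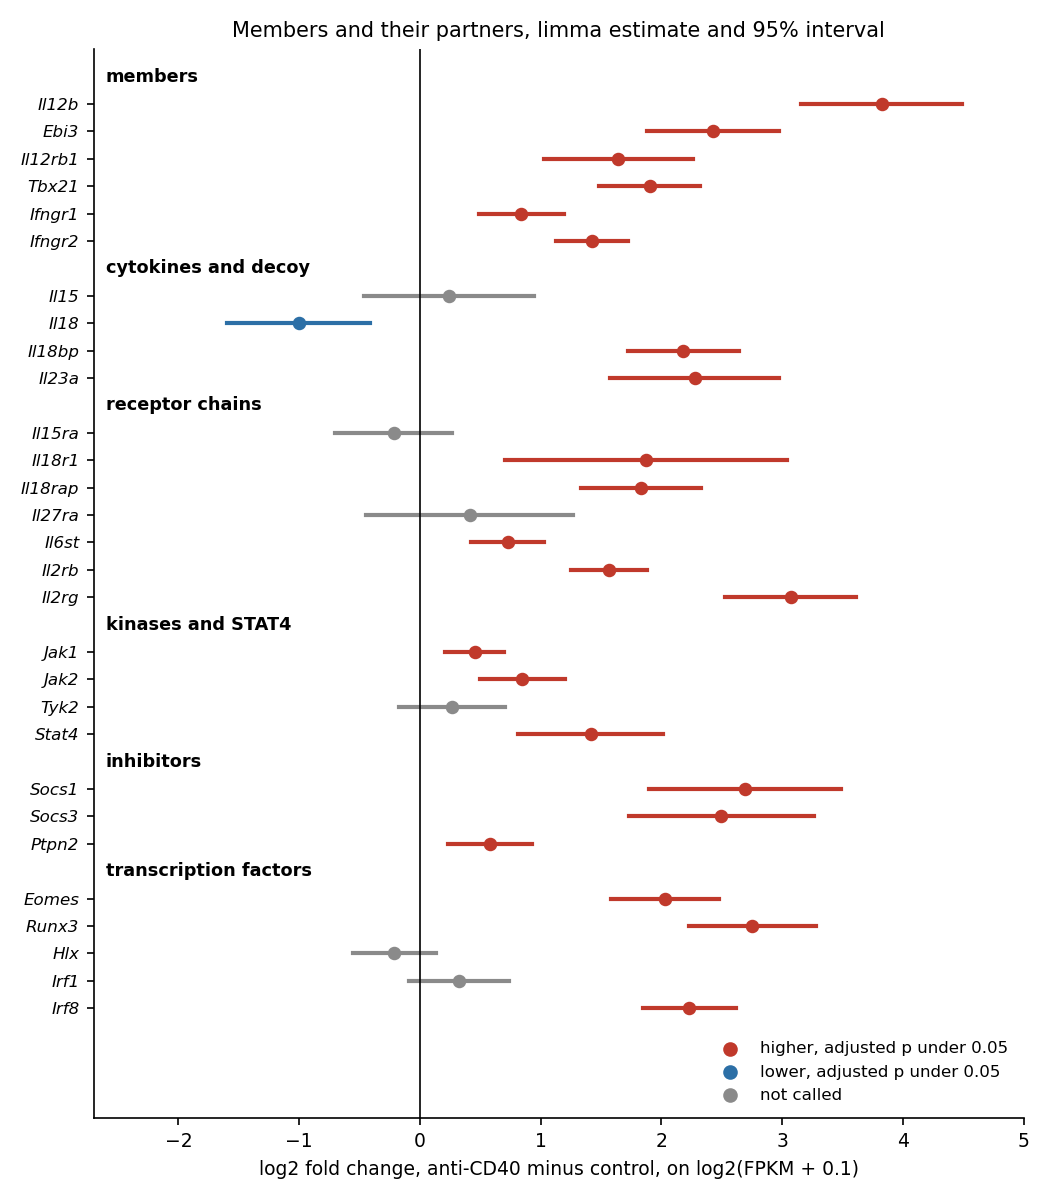
Log2 fold change of anti-CD40 over control on log2(FPKM + 0.1), with 95% intervals from limma, for the 6 members tested and the partner genes reported here, grouped by role. Red marks genes called higher, blue the 1 gene called lower (Il18), and grey the 6 partners not called. Il23a, Il18rap, and Eomes are drawn in red but passed the filter only through the anti-CD40 mice, so their calls are not used as support.

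Genes that respond to IFN-γ were higher, beside an Ifng level of a few reads. Of 40 listed IFN-γ response genes, 39 were tested. In these, 35 were called higher and none lower, against 23.5% and 21.7% over all genes tested. The median log2 fold change of the list was 2.01. Of the genes tested, 2 (Ido1 and Tgtp1) had a control mean under 0.1 and passed the filter only through the anti-CD40 mice. The 4 not called were Irf1, Irgm2, Iigp1, and Fcgr1. The list shares 4 genes with the partner list, Irf1, Irf8, and Socs1 among them. Ubd, which encodes a ubiquitin-like modifier, had the largest change of the list (9.54 on the log2 scale), and the chemokine gene Cxcl9 had the next largest of the named genes at 5.47. B2m, the light chain of MHC class I, was abundant in all mice and rose by 0.57 on the log2 scale (limma adjusted p = 0.00307). Iigp1, a GTPase of the same response, had 127 ± 14.8 (SD, n = 3) against 151 ± 14.9 (SD, n = 6). For Iigp1, every anti-CD40 mouse was below every control mouse (highest 135 against lowest 137, exact permutation p = 0.0238). Its log2 fold change of -0.25 did not pass the test across genes (limma adjusted p = 0.114). The sign of this change turned with quantile normalization (0.16) and after the rescaling without the Saa genes (0.12). Many of these genes also answer to type I interferon and TNF, and the part of each cytokine was not tested.

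Of 16 listed effector genes of type 1 lymphocytes and NK cells, 14 were tested. In these, 11 were called higher and 1 lower, against 23.5% and 21.7% over all genes tested. The median log2 fold change of the list was 2.19. Of those tested, 1 (Klrg1) passed the filter only through the anti-CD40 mice. Gzma, a cytotoxic protease, had a mean FPKM of 72.3 ± 12.6 (SD, n = 3) against 3.96 ± 3.28 (SD, n = 6), which is 4.47 as a log2 fold change (limma adjusted p = 6.82e-05). The chemokines Ccl4 and Ccl5 both rose by 3.85 on the log2 scale and Xcl1 by 2.20. S1pr5, a receptor by which mature NK cells leave tissue, was the exception. It had 0.395 ± 0.0870 (SD, n = 3) against 0.893 ± 0.284 (SD, n = 6) with overlapping groups and a log2 fold change of -0.95 (limma adjusted p = 0.0246), and it lost the call without mouse 2 or mouse 5 and after the rescaling without the Saa genes (adjusted p between 0.0853 and 0.0878). Gzmk was at the floor in all mice.

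Cytokines of type 2 and type 17 cells were hardly detected. Of 12 listed genes, 5 were tested, 1 was called higher, and 1 was called lower, with a median log2 fold change of 0.47. These counts are near the shares over all genes tested, 23.5% higher and 21.7% lower, so they show nothing particular to this list. Il5, Il17a, and Il22 were at the floor in all 9 mice, and Il4 had 2 reads after anti-CD40 and 0 in the control mice. Il4ra, a receptor chain that many liver cells use, rose by 0.78 on the log2 scale (limma adjusted p = 0.00774). Gata3 and Foxp3 had log2 fold changes of 0.58 and 0.47 and were not called (limma adjusted p = 0.0778 and 0.0805). Both were called higher after the rescaling without the Saa genes (0.88 and 0.83, limma adjusted p = 0.0112 and 0.00342). Foxp3 was also called without control mouse 8 (limma adjusted p = 0.0309), and Gata3 with a pseudocount of 1 (limma adjusted p = 0.0490).

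**Figure D4:**
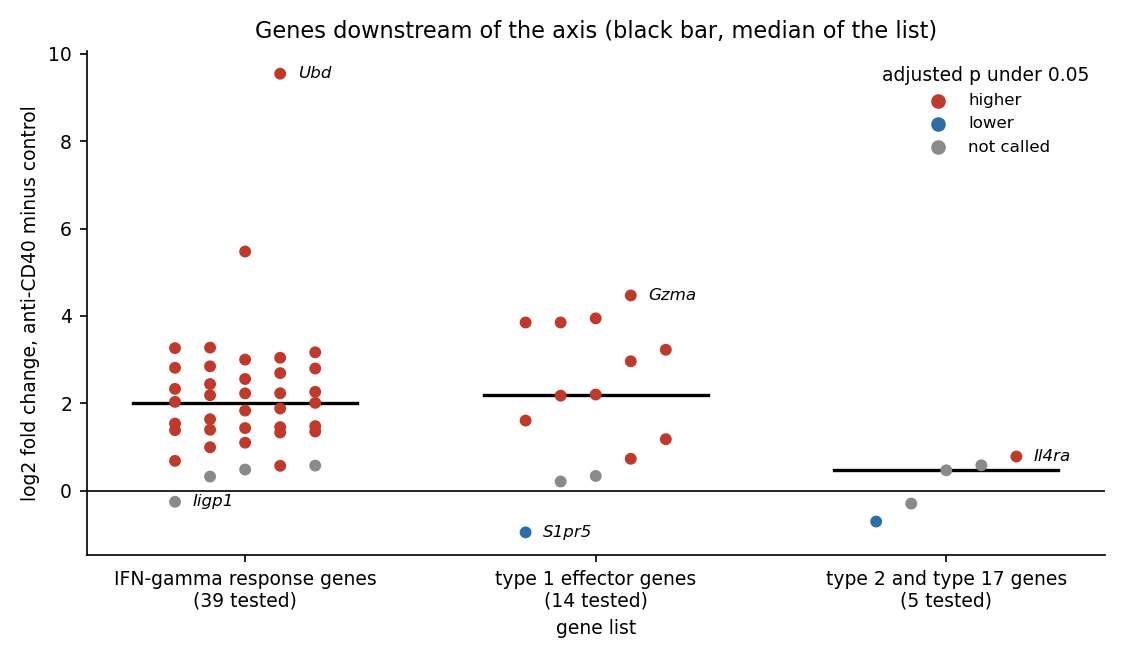
Log2 fold changes, anti-CD40 minus control, of the genes tested in 3 lists, with a black bar at each list's median (2.01, 2.19, and 0.47) and 5 of the extreme genes named. Red and blue mark genes called higher and lower and grey those not called. Ido1, Tgtp1, and Klrg1 are drawn in red but passed the filter only through the anti-CD40 mice.

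Cell type markers moved in the same livers, and in bulk tissue more cells of a type and more RNA per cell cannot be told apart. The counts below stand beside 23.5% called higher and 21.7% called lower over all genes tested. The NK cell markers (7 of 7 tested higher) had a summed FPKM of 19.2 to 22.9 after anti-CD40 and 3.46 to 7.89 in control mice, and the T cell markers (9 of 10 higher) 13.8 to 16.7 and 3.35 to 5.64. Of the NK markers, Klrb1c and Klrk1 were near the threshold (limma adjusted p = 0.0418 and 0.0328), and Klra4 was at the floor in all mice. These lists moved in the direction of Tbx21, Il12rb1, and Stat4, and their part in those changes was not tested. Among possible sources of IL-12 subunits and Ebi3, the dendritic cell markers (7 of 8 higher) summed to 19.5 to 24.0 against 3.70 to 7.06, the monocyte markers (7 of 7 higher) to 581 to 782 against 46.4 to 127, and the B cell markers (5 of 5 higher) to 29.5 to 44.4 against 1.66 to 7.07. Of the cDC1 markers, Batf3 and Clec9a were higher (log2 fold change 1.47 and 0.85, limma adjusted p = 0.00497 and 0.0348), and Xcr1 was not called (-0.05, adjusted p = 0.896). Among the other dendritic cell markers, Siglech was near the threshold (limma adjusted p = 0.0485), and Zbtb46 lost its call with quantile normalization (adjusted p = 0.121). Cd209a went against the list, at low values. Its FPKM was 0.0414 to 0.264 in the 6 control mice (mean 0.132), and none of the 3 anti-CD40 mice exceeded 0.01. The log2 difference was -0.98 (exact permutation p = 0.0238, the smallest possible). Cd209a did not pass the filter on low values, so the count of 7 of 8 leaves it out. After anti-CD40, the NK sum was mostly Klrd1 (mean FPKM 13.7) and the monocyte sum mostly Plac8 (mean FPKM 568). In the dendritic cell sum, Itgax rose from a mean FPKM of 0.261 to 6.34 and Ccr7 from 0.563 to 6.29. Zbtb46 and Siglech rose less, with log2 fold changes of 0.71 and 0.67. Among the markers tested, those with a control mean under 0.1, which passed the filter only through the anti-CD40 mice, were 2 NK cell, 1 T cell, 1 dendritic cell, 2 monocyte, 1 B cell, and 2 neutrophil genes. The 2 NK cell genes were Klra7 and Eomes, and Eomes is also counted in the partner list.

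Neutrophil markers (5 of 5 higher) summed to 4203 to 5184 against 18.0 to 152. Markers of the resident Kupffer cells (6 of 6 lower) summed to 39.0 to 50.7 against 285 to 456. The hepatocyte markers, which show the tissue to be liver, were abundant in every mouse, at 19427 to 24165 after anti-CD40 and 40090 to 83009 in control mice, with 7 of 9 lower and Fgb, an acute phase gene, higher. The part of these shifts in the changes of Il12b, Ebi3, Ifngr1, and Ifngr2 was not tested.

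**Figure D5:**
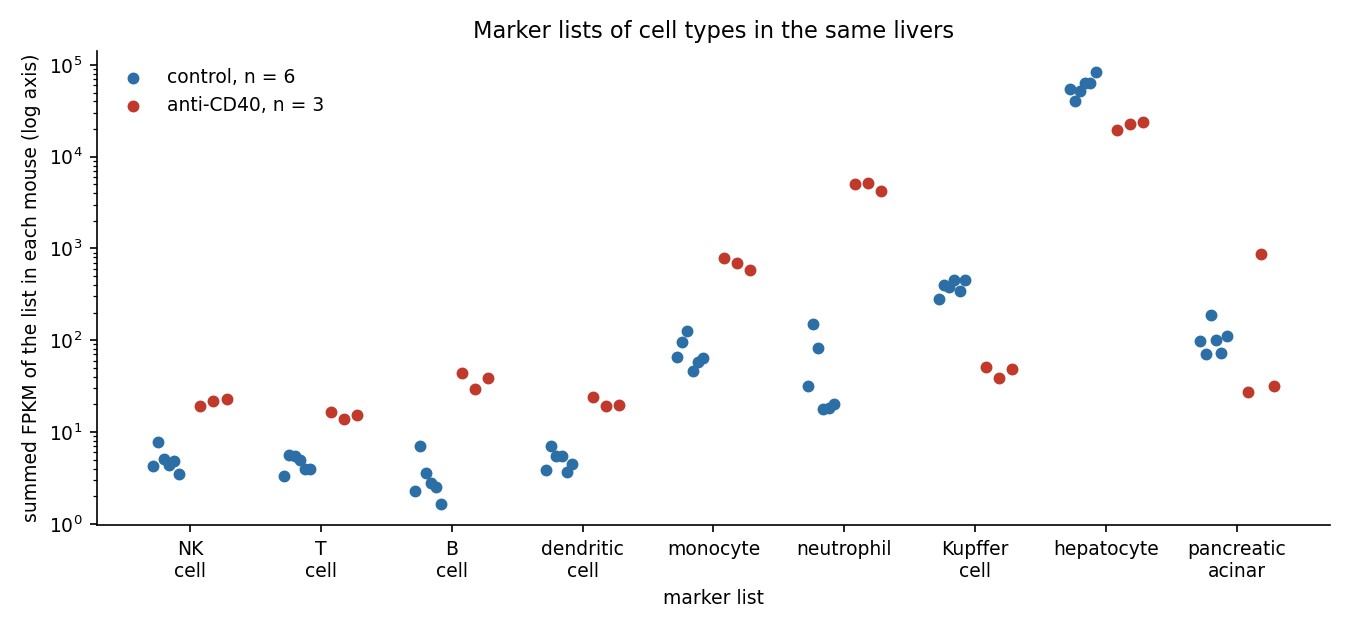
Summed FPKM of 9 marker lists in each mouse on a log axis, control mice in blue (n = 6) and anti-CD40 mice in red (n = 3). The sums are higher in all anti-CD40 mice for NK, T, B, dendritic, monocyte, and neutrophil lists, lower for Kupffer cell and hepatocyte lists, and 1 anti-CD40 mouse stands out in the pancreatic acinar list.

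The genes most like a member over the 9 mice were found for the 4 members tested whose mean FPKM reached 1, by the Pearson correlation of log2(FPKM + 0.1). All of these correlations hold the difference between the groups and the shared libraries, and are given as a description. For Tbx21 they were Lsp1, Arhgap9, and Atp10a (0.994 each), for Ifngr2 Syk, Lst1, and Tmem173 (0.995 each), and for Ebi3 Racgap1, Polr3d, and Rere (0.993 to 0.994). For Ifngr1 they were Tubgcp4 (0.982), BC094916 (0.978), and Gpr174 (0.977).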

How the data were processed

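RNA from 9 livers was sequenced with the QuantSeq 3′ FWD kit on an Illumina NextSeq instrument. Alignment was to mm10 with STAR, and the authors deposited FPKM values from Cufflinks and CuffDiff, 1 per gene and mouse, with a floor of 0.01. The annotation and any strand setting are not given in the sources used here. The 15 genes with a failed estimate were left out. Mice were grouped by the sample labels.

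No scaling was added. The log2(FPKM + 0.1) values were tested with limma 3.58.1 in R 4.3.3 (trended eBayes, 2-sided, no covariate, Benjamini-Hochberg adjustment at 0.05) in the 13807 genes whose mean FPKM reached 0.1. Single genes and within-mouse ratios were tested with the exact permutation test. The scripts were tested on simulated data. Reads behind low values were recovered from the steps between FPKM values of a mouse. Of 4682 low genes, 91.3% came out within 0.05 of whole reads in every mouse. These are the smallest whole numbers that match, and the true reads could be higher. Relative depth was 0.991 to 1.13 in anti-CD40 mice and 0.870 to 1.06 in control mice. Counts were not modeled, because this recovery covers low genes alone.

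The members and lists, compiled from general knowledge, were chosen with earlier results of these data known, so no p was adjusted over a list alone. Named were all members, the direct partners of a member, and otherwise the 4 genes of a list with the highest mean FPKM and its largest and smallest change, plus the 3 genes most like each member with a mean of at least 1. Genes not called, at the floor, or with overlapping positions, Il4, and single markers named beside a list were named after their values were seen. Some genes the rule took are not reported here. Promoter sequences were taken from RefSeq by symbol. Alternatives were pseudocounts, filters, scalings (one leaving out Saa1, Saa2, and Saa3, values at the floor staying there), variance models, thresholds, and leaving out each mouse. Python 3.11.15, numpy 2.4.6, pandas 2.3.3, scipy 1.17.1, and matplotlib 3.10.9 did the other steps.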

Additional observations from a re-analysis of the deposited data

Results flagged for a closer look

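Among 22 sets of values from the 6 control mice, 1 mouse lay apart from the others in 2, where chance gives about 1.1. In Il12a, control mouse 7 was highest, and its gap to the next mouse was 1, the whole of the range, since it had 1 read (FPKM 0.0451) and the other control mice were at the floor. In Il12rb2, control mouse 3 was highest, with a gap of 0.705 of the range and 2 reads (FPKM 0.0382). Both values are within a few reads of the floor, where most control mice are tied. The number given for chance does not apply to such tied values, so nothing is concluded from these 2 sets.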

How the results depend on the processing

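The count of members called higher was 6, and ran from 4 with a mean FPKM of at least 1 to 7 with no filter, where Il12a was also called (log2 fold change 1.20, adjusted p = 2.01e-04 from limma). It was 6 with each mouse left out, and no member was called lower under any alternative. Of the single genes, Ifngr1 missed a required 2-fold change (log2 fold change 0.84), and the sign of Il12rb2 turned without control mouse 3 (0.017). Among partner genes called higher, the count ran from 13 to 19, and among IFN-γ response genes from 30 to 38. The count of type 1 effector genes called higher, 11, was 7 with a mean FPKM of at least 1, as fewer genes were then tested, and 10 to 11 with each mouse left out. For type 2 and type 17 genes the count of 1 was 2 with a pseudocount of 1, 3 after the rescaling without Saa1, Saa2, and Saa3, 0 when a 2-fold change was required, and 1 to 2 with each mouse left out, being 2 without control mouse 8. The cause was not tested. That rescaling moved the overall median (log2) from 0.0056 to 0.35 and the calls from 3240 higher and 2990 lower to 5635 and 1647. The ratio of Ifngr2 over Ifngr1 differed by 0.48 to 0.62 under the alternatives run, none of which left out an anti-CD40 mouse. This range therefore does not cover the spread among treated mice. The log2 fold changes of Ifngr2 and Ifngr1 were 1.45 and 1.01 without mouse 5. They were 1.36 and 0.71 without mouse 2, and 1.47 and 0.80 without mouse 9. The exact test with an anti-CD40 mouse left out was not run, since 2 against 6 mice cannot pass 0.05. No paired analysis was possible because the groups share no mouse numbers. Genes at a few reads (Ifng, Il12a, Il12rb2) are limited by depth.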
